A study of Mus musculus with 17 samples.

Results

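Hearts of tumour-bearing mice were compared with hearts of mice without a tumour, using the 6 libraries labelled Model and the 5 labelled CON, which are 11 of the 17 heart libraries of the series. The members of the comparison were chosen by the genotype label alone, and the other 6 libraries, from tumour-bearing mice that swam, did not enter it. Model mice carried a transplanted CT-26 tumour, a mouse colon carcinoma line, and CON mice carried none. The study asked how tumour growth affects the heart. Strain, sex, age, tumour site and batch are not given in the labels, and nothing in them says that each library came from a separate mouse, so p-values measure the spread between these libraries. The Model libraries are called tumour hearts and the CON libraries control hearts below.

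Mice with transplanted tumours often lose muscle and fat, a state called cachexia, in which cytokines such as IL-6 and IL-1 and the glucocorticoid hormones act on many organs. IL-6 binds receptors that share the subunit gp130 and activates the transcription factor STAT3, which switches on secreted acute phase proteins in the liver and in other tissues. In the heart, SRF, which binds the CArG box, drives actin and other sarcomere genes, and HSF1, which binds heat shock elements, drives the chaperones that keep proteins folded.

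Levels are taken as FPKM, a unit inferred from the values since no label names it, the reads of a gene scaled by its exon length and by the library's total. Fold changes are tumour minus control in log2(FPKM + 1) with their standard error, over 6 and 5 libraries. A gene passed when its Benjamini-Hochberg adjusted p in limma was under 0.05. The tissue carried the label cardiac, and its defining genes were abundant: Myh6, the main myosin heavy chain of the adult mouse heart, stood between 2711 and 3832 FPKM in tumour hearts and between 632 and 3104 FPKM in control hearts. Recovered depth was 14.8 to 19.8 M reads in tumour hearts and 14.9 to 17.5 M reads in control hearts.

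Control 1 and control 4 had the lowest levels of long genes of the 11 libraries. In the eighth of genes with the longest exons, with a median length of 11093 bases, the median deviation of log2(FPKM + 1) from the mean of all 11 libraries was between 0.00 and 0.28 in the 6 tumour hearts. In the same bin it was -0.43 in control 1 and -0.78 in control 4, against 0.20, 0.13 and -0.11 in control 2, 3 and 5. In the bin of the shortest genes control 1 and control 4 were instead the highest, at 0.30 and 0.31. Rank correlations across genes between exon length and a library's deviation from the rest of its group were -0.26 to 0.28 in tumour hearts. They were -0.52 in control 1 and -0.57 in control 4, 0.56 and 0.58 in control 2 and 3, and -0.04 in control 5. The control hearts thus differed from one another in both directions. For control 2 and 3 the rest of the group includes control 1 and control 4, so these values are not a shift against tumour hearts. The counts of the main lists are also given from a second fit without control 1 and control 4, which sets 6 tumour hearts against 3 control hearts. A gene said below to have risen or fallen also passed there unless the text says otherwise.

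**Figure D1:**
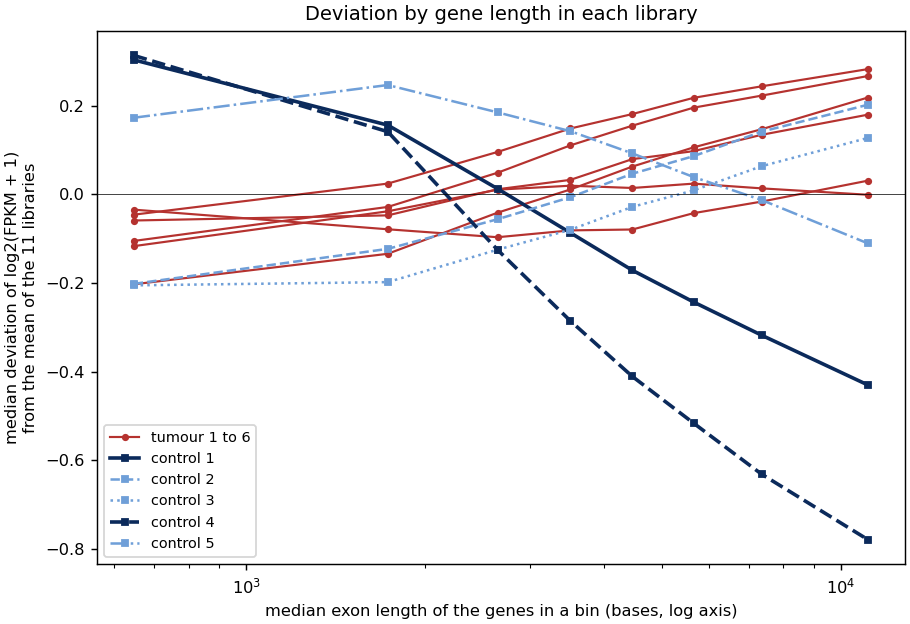
Median deviation of log2(FPKM + 1) from the mean of the 11 libraries (vertical axis) in 8 bins of genes by exon length (horizontal axis, bases, log axis), with 1 line per library. Tumour hearts (red) lie between 0.00 and 0.28 in the longest bin, where control 4 (dark blue, dashed) is at -0.78 and control 1 (dark blue) at -0.43.

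Tumour hearts had 1510 genes (11.1%) higher and 614 (4.51%) lower, out of 13615 whose mean reached 0.5 FPKM in either group. Without control 1 and control 4, 611 (4.48%) of 13636 genes were higher and 485 (3.56%) lower. Counts of the gene lists below are to be read against these shares of all tested genes. Both fits called 564 genes (4.17%) higher and 310 (2.29%) lower, of 13509 tested in both, and 0 genes were called in opposite directions. The sign of the fold change was the same in both fits for 2120 of the 2124 genes called with 11 libraries. Every tumour heart lay above every control heart for 1040 genes (7.64%) and below for 387 (2.84%).

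The calls that were lost without the pair of control libraries differed in gene length from those that held. The 946 genes higher only with control 1 and control 4 had a median exon length of 5275 bases, against 4062.5 bases for the 564 genes higher in both fits and 3973 bases for all tested genes. The 304 genes lower only with them had a median of 2038.5 bases, against 2716 bases for those lower in both. Removing control 1 alone left 660 higher and 289 lower genes, removing control 4 alone left 983 and 509, and removing control 2 alone gave 2578 and 1073. Of the tumour hearts, removing tumour 3, tumour 4 or tumour 6 left 764, 762 and 851 higher and 314, 350 and 424 lower genes. Without control 3 the counts were 1977 and 1008, and without control 5 they were 1329 and 379.

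The split between higher and lower genes depended on how libraries were scaled. The median fold change over all tested genes was 0.14 with 11 libraries and 0.03 without control 1 and control 4. Median-of-ratios scaling put it at -0.01 and gave 1211 higher and 1284 lower genes, and quantile normalization put it at 0.00 and gave 1186 and 1144. With the trend on exon length removed it was 0.00, with 1371 higher and 1331 lower genes. Equal totals without the mitochondrially encoded genes put it at 0.27, with 2201 higher and 359 lower genes. Fold changes of single genes are to be read against these medians. On this scale the change of genes with low levels is understated.

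**Figure D2:**
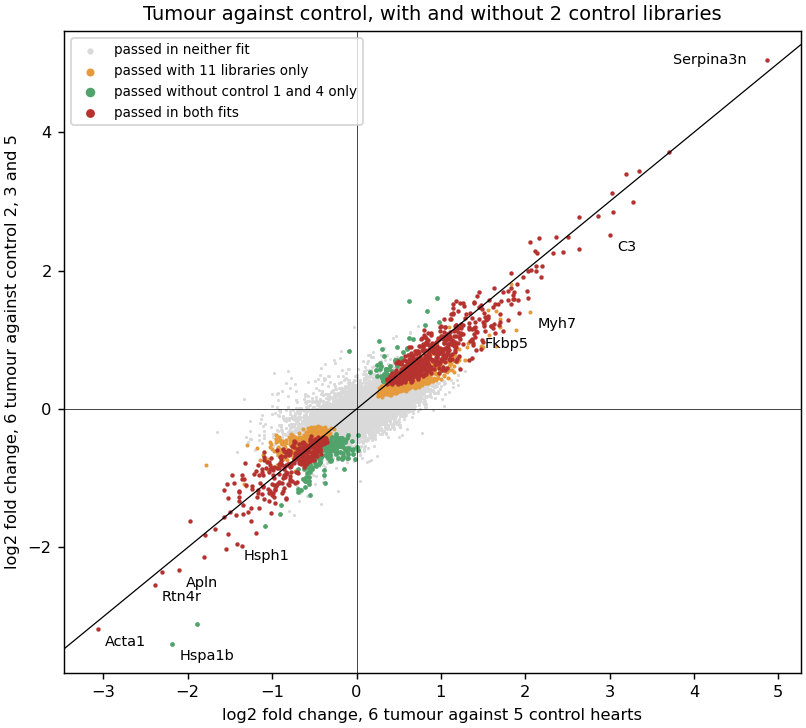
Log2 fold change of each tested gene, tumour against control, with all 11 libraries (horizontal axis) and without control 1 and control 4 (vertical axis), with the diagonal as a line. Red points, the 874 genes called in both fits, follow the diagonal, and orange points passed with 11 libraries only. Hspa1b, among the green points, passed without control 1 and control 4 only.

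Secreted acute phase proteins stood highest in tumour hearts of all 74 gene lists examined. Of 24 measured members 11 were expressed at the limit, 10 of these rose in both fits and 0 fell, and their median fold change was 1.45 with 11 libraries and 1.39 without control 1 and control 4. Of the 11, 3 reached the limit through tumour hearts alone, and of the other 8, 7 rose. Serpina3n, an inhibitor of serine proteases and a target of STAT3 and glucocorticoids, had 103 to 334 FPKM (median 206) in tumour hearts, against 8.82, 3.95, 5.36, 5.52 and 5.64 FPKM in control hearts 1 to 5. The lowest tumour heart was more than 10 times the highest control heart, and the fold change was 4.87 ± 0.31 (limma adjusted p = 8.95e-06; 5.04 without control 1 and control 4).

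Hp, haptoglobin, which binds free haemoglobin, had 4.02 to 40.2 FPKM (median 14.8) in tumour hearts and 0.357, 0.375, 0.119, 0.563 and 0.207 FPKM in control hearts. The groups did not overlap, and the rise was 3.35 ± 0.44 (adjusted p = 0.000763). Lbp, which carries bacterial lipopolysaccharide to its receptor, had 3.41 to 8.07 FPKM (median 5.105) in tumour hearts and 0.986, 0.761, 0.622, 0.287 and 1.39 FPKM in control hearts, a rise of 1.799 ± 0.19 (adjusted p = 0.000176). Serpina3h, a relative of Serpina3n, had 8.15 to 15.2 FPKM (median 10.6) in tumour hearts and 1.56, 1.86, 1.69, 1.51 and 2.09 FPKM in control hearts and rose by 2.13 ± 0.14. Serpina3 genes are near-identical neighbours, and the counting method is not given in the sources used here, so reads may be split among them. Tumour 5 was the lowest tumour heart for Serpina3n, Hp and Lbp alike. The acute phase genes of the liver Saa1 and Saa2 stood at 0.146 FPKM or less in every library of both groups and were not tested.

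The bases before the start of Serpina3n are shown because it was the gene with the greatest rise of all those named. They run from chr12:104406458-104406707 on the plus strand, from the RefSeq promoter table with build GRCm38.p6, 5′ to 3′, and the capitals mark a glucocorticoid response element (GNACA and its reverse complement TGTNC with 3 bases between them, searched on both strands).
Serpina3n: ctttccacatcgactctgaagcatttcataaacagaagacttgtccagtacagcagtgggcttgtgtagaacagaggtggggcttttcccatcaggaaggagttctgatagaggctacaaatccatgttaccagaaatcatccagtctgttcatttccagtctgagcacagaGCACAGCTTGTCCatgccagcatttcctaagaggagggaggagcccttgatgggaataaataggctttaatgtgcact
The same letters occurred in the 250 bases before the start of 0.44% of 27025 genes with a promoter in that table and of 0.38% of the tested genes matched to it. Of the 6 acute phase genes tested with a promoter there, Serpina3n and Serpina3c held it, and the STAT motif (TTCNNNGAA, both strands), found in 8.13% of all promoters, was in those of Serpina3i and Itih4.

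Genes of the IL-6 receptor family and its feedback were called higher and in no case lower. Of 29 measured, 23 were tested, 12 rose and 0 fell with 11 libraries (median 0.55), and 8 rose without control 1 and control 4 (median 0.33). Removing control 1 alone or tumour 4 alone left 7. Socs3, the feedback inhibitor of this pathway, had 4.17 to 8.65 FPKM (median 5.88) in tumour hearts, against 1.51, 1.83, 1.44, 0.792 and 1.75 FPKM in control hearts. Every tumour heart was above every control heart, and the rise was 1.51 ± 0.17 (adjusted p = 0.00035; 1.38 without control 1 and control 4). Osmr, the receptor of oncostatin M, had 4.76 to 7.39 FPKM (median 5.96) in tumour hearts and 1.47, 2.5, 3.204, 0.766 and 2.301 FPKM in control hearts, a rise of 1.26 ± 0.21 (adjusted p = 0.00273). Pim3, a kinase induced by STAT3, stood at 47.5 to 86.6 FPKM (median 57.9) in tumour hearts and 32.7, 38.7, 31.3, 32.3 and 24.9 FPKM in control hearts and rose by 0.94 ± 0.17. Il6 itself stood at 0.113 FPKM or less in tumour hearts and 0.0275 FPKM or less in control hearts, below the limit for a test. Stat3 and Il6st, which encodes gp130, rose by 0.82 and 1.06 with 11 libraries but did not pass without control 1 and control 4, at 0.46 and 0.60.

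Socs3 is the member of this list with the smallest p, and its upstream bases held 1 STAT motif, in capitals. They lie at chr11:117969367-117969616 on the minus strand (RefSeq, GRCm38.p6, 5′ to 3′).
Socs3: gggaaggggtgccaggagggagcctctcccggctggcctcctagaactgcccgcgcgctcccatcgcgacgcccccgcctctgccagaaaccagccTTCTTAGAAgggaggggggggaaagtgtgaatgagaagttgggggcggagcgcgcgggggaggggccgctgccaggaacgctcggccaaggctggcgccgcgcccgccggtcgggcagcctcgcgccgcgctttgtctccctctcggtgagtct
Of the 12 members that rose with 11 libraries, 11 had a promoter in the table, and Socs3 and Steap4, a metalloreductase, held the motif.

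Complement genes rose broadly. Of 27 measured, 23 were tested, 16 rose and 1 fell with 11 libraries (median 0.56), and 9 rose and 1 fell without control 1 and control 4 (median 0.72). Of the 23, 2 reached the limit through tumour hearts alone, and of the other 21, 14 rose and 1 fell (median 0.77). C3, the central component, had 88.3 to 224 FPKM (median 182) in tumour hearts and 15.2, 25.4, 25.2, 7.12 and 26.3 FPKM in control hearts. The groups did not overlap and the rise was 3.01 ± 0.35 (adjusted p = 0.000385), or 2.52 without control 1 and control 4. C4b had 13.5 to 36.5 FPKM (median 29.2) in tumour hearts and 1.53, 2.56, 1.59, 0.423 and 2.31 FPKM in control hearts, a rise of 3.28 ± 0.302 (adjusted p = 8.53e-05), and its near-identical copy C4a may share its reads. C1s1, a protease of the first component, had 13.99 to 32.9 FPKM (median 26.9) in tumour hearts and 6.51, 5.704, 4.84, 3.52 and 6.02 FPKM in control hearts and rose by 2.07 ± 0.21. A regulator moved with them: Serping1, the C1 inhibitor, rose by 1.41 and passed in both fits. The member that fell was Vtn, vitronectin, which pericytes also make, with 5.83 to 9.601 FPKM (median 8.06) in tumour hearts and 12.8, 13.01, 10.3, 10.9 and 20.7 FPKM in control hearts (-0.66 ± 0.18, adjusted p = 0.0275).

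Among coagulation genes, 6 of 17 tested rose with 11 libraries (median 0.36) and 3 without control 1 and control 4 (median 0.23), and 0 fell in either fit. Serpine2, a thrombin inhibitor, had 12.1 to 39.2 FPKM (median 22.4) in tumour hearts, against 4.23, 5.18, 3.59, 3.29 and 6.65 FPKM in control hearts. It rose by 2.13 ± 0.29 (adjusted p = 0.00095) with no overlap. F13a1, the factor XIII A chain, which macrophages also make, stood at 12.9 to 41.6 FPKM (median 23.8) in tumour hearts and 7.85, 8.499, 7.99, 6.696 and 7.38 FPKM in control hearts, a rise of 1.49 ± 0.25.

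The interleukin-1 family was represented by its receptor and by Il33 more than by Il1b. Il33, an alarmin stored in the nuclei of stromal cells, had 13.1 to 34.8 FPKM (median 20.1) in tumour hearts and 4.06, 3.08, 3.12, 1.69 and 2.37 FPKM in control hearts. No library overlapped, and the rise was 2.51 ± 0.26 (adjusted p = 0.000143). Il1r1, the IL-1 receptor, had 7.53 to 15.4 FPKM (median 10.3) in tumour hearts and 1.73, 3.52, 2.89, 0.956 and 2.498 FPKM in control hearts and rose by 1.83 ± 0.23 (adjusted p = 0.000649). Irak3, a brake on that receptor, rose by 1.12 ± 0.15. Il1b stood at 0.651 to 1.47 FPKM (median 0.684) in tumour hearts and 0.722, 3.47, 0.704, 0.253 and 0.488 FPKM in control hearts, a difference of -0.07 ± 0.27 that did not pass (adjusted p = 0.872). Control 2 weighed on this difference, at 3.47 FPKM where the next highest control heart stood at 0.722 FPKM. Tnf stood between 0.0829 and 0.798 FPKM in tumour hearts and between 0 and 0.568 FPKM in control hearts, below the limit. Of 24 tested genes of the IL-1, IL-33 and TNF list, 12 rose and 0 fell (median 0.44), but 3 rose and 1 fell without control 1 and control 4 (median 0.28). The 3 that rose were Il33, Il1r1 and Irak3. Of the 24, 3 reached the limit through tumour hearts alone, and of the other 21, 10 rose and 0 fell (median 0.48). In the whole list removing control 1 alone left 4, removing tumour 4 alone left 6, and removing control 4, tumour 3 or tumour 6 left 7 each. Removing control 2 gave 15 and removing control 3 gave 11.

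Chemokine genes mostly held in both fits: 12 of 25 tested rose and 1 fell (median 0.56), and 11 rose and 1 fell without control 1 and control 4 (median 0.65). Both fits called 10 of them higher and 1 lower. Of the 25, 5 reached the limit through tumour hearts alone, and of the other 20, 7 rose and 1 fell (median 0.47). Cxcl14, a chemokine of fibroblasts and epithelia, had 74.4 to 200.1 FPKM (median 103) in tumour hearts and 15.8, 13.9, 10.9, 12.96 and 11.9 FPKM in control hearts. Its lowest tumour value was several times its highest control value, and the rise was 3.03 ± 0.26 (adjusted p = 4.59e-05). Ccl11, eotaxin, had 10.1 to 14.5 FPKM (median 12.3) in tumour hearts and 3.55, 1.42, 2.07, 3.68 and 1.11 FPKM in control hearts, a rise of 2.06 ± 0.21, or 2.42 without control 1 and control 4. The monocyte chemokines Ccl7 and Ccl12 rose by 0.98 and 1.18, and Ccr1, a receptor of myeloid cells, by 1.29 ± 0.17. The member that fell was Cxcr4, the receptor of Cxcl12, at -0.94 in the fit of 11 libraries and -1.08 without control 1 and control 4.

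Adhesion molecules of activated endothelium were higher, at low levels. Icam1 had 4.49 to 6.75 FPKM (median 5.26) in tumour hearts and 1.804, 2.25, 2.33, 0.885 and 2.27 FPKM in control hearts (1.17 ± 0.16, adjusted p = 0.00115). Selp, P-selectin, had 0.2703 to 0.886 FPKM (median 0.675) in tumour hearts and at most 0.0909 FPKM in control hearts, where 2 libraries were listed at 0. Vcam1 rose by 0.82 ± 0.13. Of 16 tested adhesion genes 5 rose and 1 fell in each fit, with medians of 0.34 and 0.06. Of the 16, 3 reached the limit through tumour hearts alone, and of the other 13, 3 rose and 1 fell (median 0.17). Of 45 tested interferon-stimulated genes 2 rose and 1 fell (median 0.21), and 3 rose and 0 fell without control 1 and control 4 (median 0.02). The higher count was 7 without control 2 and 6 without control 3. Isg15 fell by 0.73 with 11 libraries (adjusted p = 0.0436) and stood at -0.53 without the pair, where it did not pass. Of 17 tested genes of MHC class I presentation 2 rose and 0 fell (median 0.14), and 1 rose without the pair (median 0.00). Of 9 tested genes of class II presentation 1 rose and 0 fell, and 1 of 8 rose and 0 fell without the pair. The class II medians were -0.23 and -0.26, and 7 of the 9 fold changes were below 0. With median-of-ratios scaling, or without control 3 alone, 0 class II genes rose and 3 fell.

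Markers of myeloid cells were higher in tumour hearts, and in these bulk libraries fewer or more cells of a type cannot be told apart from less or more RNA per cell. Of 19 measured neutrophil markers 8 were tested, 7 rose (median 1.08) and 5 rose without control 1 and control 4 (median 1.16). Of the 8, 5 reached the limit through tumour hearts alone, and of the other 3, 3 rose and 0 fell (median 2.16). Tumour 2 was the lowest tumour heart for this list. Without it 11 markers reached the limit and 11 rose, a count that depends on the limit, since a higher tumour mean admits more genes. The summed level of the 19 measured markers was 25.9 to 66.4 FPKM in tumour hearts and 3.02 to 6.39 FPKM in control hearts. S100a9, a subunit of calprotectin, had 6.79 to 24.9 FPKM (median 9.202) in tumour hearts, against 0.6598, 0.6403, 0.735, 1.96 and 0.892 FPKM in control hearts. It rose by 2.64 ± 0.29 (adjusted p = 0.000264), with no overlap. Its partner S100a8 rose by 2.37 ± 0.24. Lcn2, which sequesters bacterial iron carriers and stands in both the neutrophil and the acute phase list, had 3.98 to 18.1 FPKM (median 10.6) in tumour hearts and 1.79, 0.663, 0.9505, 2.85 and 1.17 FPKM in control hearts (2.16 ± 0.31). Elane and Mpo, enzymes of immature granulocytes, stood at 0.168 FPKM or less in tumour hearts and at 0 in control hearts.

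Of 31 tested monocyte and macrophage markers 13 rose and 0 fell in each fit, with medians of 0.53 and 0.68. These were not all the same genes, and 9 were higher in both fits. Of the 31, 5 reached the limit through tumour hearts alone, and of the other 26, 9 rose and 0 fell (median 0.49). The summed level of the markers was 536 to 1197 FPKM in tumour hearts and 352 to 662 FPKM in control hearts, so those ranges overlapped. Chil3, a chitinase-like protein of myeloid cells, had 0.9502 to 2.26 FPKM (median 1.31) in tumour hearts and 0, 0, 0.0783, 0.0369 and 0 FPKM in control hearts, of which 3 were listed at 0. Plac8 rose by 1.303 ± 0.17. Lyve1, made by resident macrophages and lymphatic endothelium, had 12.8 to 36.1 FPKM (median 26.9) in tumour hearts and 6.12, 9.18, 7.58, 3.67 and 4.26 FPKM in control hearts, a rise of 1.86 ± 0.28 (adjusted p = 0.00161). Lymphocyte markers gave little: 1 of 17 T and NK cell markers and 3 of 11 B and plasma cell markers reached the limit. Cd3e, a chain of the T cell receptor complex, stood at 0.203 FPKM or less in every library. The part of these cell types in the rise of complement, chemokine and acute phase genes was not tested.

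Erythroid genes were also higher. Of 15 measured markers 9 were tested, 5 rose (median 0.85) and 4 rose without control 1 and control 4 (median 1.05). With control 1 alone removed, 3 rose. The share of reads on haemoglobin genes was 0.299% ± 0.110 in tumour hearts (SD, n = 6) and 0.134% ± 0.0414 in control hearts (SD, n = 5), a difference with a two-sided exact permutation p of 0.00433 (0.0260 adjusted over 6 library measures), and it was higher in all 6 tumour hearts than in any control heart. Alas2, the haem synthesis enzyme of erythroid cells, had 21.1 to 57.4 FPKM (median 27.996) in tumour hearts and 5.61, 14.97, 5.13, 5.89 and 8.72 FPKM in control hearts, and rose by 1.86 ± 0.28 (adjusted p = 0.00179). Tumour 5 was the highest for Alas2. Hba-a1, alpha globin, rose by 1.34 ± 0.29, with 795 to 2349 FPKM (median 1216) in tumour hearts and 398, 757, 298, 499 and 667 FPKM in control hearts, and globin copies may share reads.

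Liver markers gave a single gene. Ahsg, the plasma protein fetuin-A, had 2.78 to 15.3 FPKM (median 9.75) in tumour hearts and 1.202, 1.67, 1.37, 1.097 and 1.24 FPKM in control hearts. No library overlapped, and the rise was 1.98 ± 0.31 (adjusted p = 0.00212). The other defining liver genes did not move with it: Alb stood between 0.0433 and 1.9995 FPKM in tumour hearts and between 0.164 and 3.34 FPKM in control hearts, and Apoa1 at 0.223 FPKM or less in tumour hearts and 1.22 FPKM or less in control hearts. The summed level of the 10 liver markers was 5.96 to 17.6 FPKM in tumour hearts and 1.84 to 16.1 FPKM in control hearts.

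**Figure D3:**
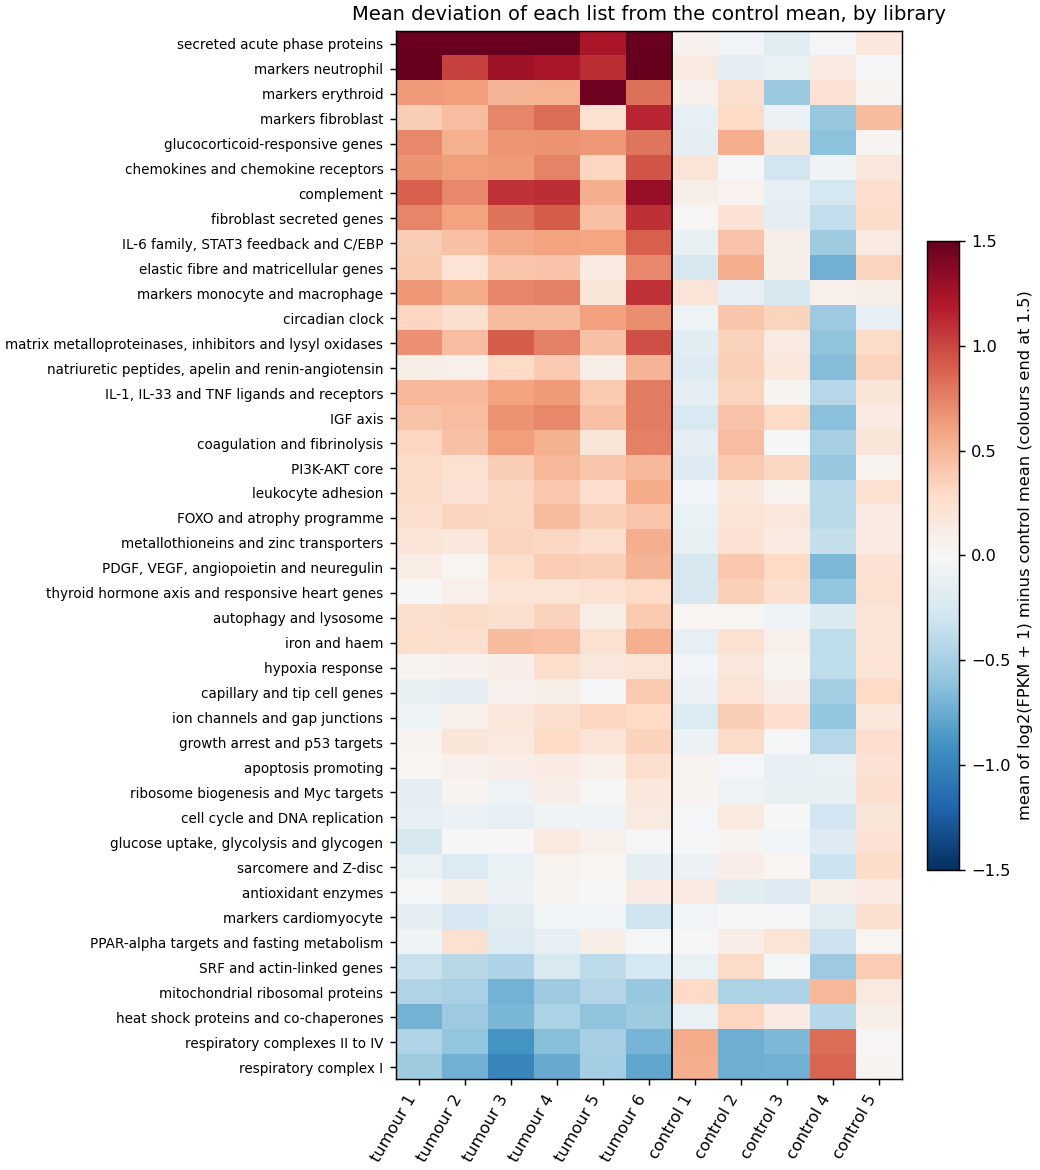
Mean of log2(FPKM + 1) of each list's tested members minus its control mean (colour, ending at 1.5), for 6 tumour hearts (left) and 5 control hearts (right of the line), for lists with at least 5 called members. Acute phase genes range from 1.23 to 2.40 in tumour hearts and from -0.16 to 0.15 in control hearts, and the complex I list is at 0.55 in control 1 and 0.88 in control 4, above all other libraries.

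The 6 tumour hearts were not alike. The mean deviation of the acute phase list from its control mean was 1.91, 1.63, 2.40, 1.99, 1.23 and 2.29 in tumour 1 to 6, against -0.16 to 0.15 in control hearts. Tumour 5 was the lowest there, and also for complement at 0.54, chemokines at 0.33 and macrophage markers at 0.18, where control hearts reached 0.25, 0.19 and 0.20. The same library was the highest for erythroid markers at 1.46, and it held 846 FPKM of Acta1 where the next tumour heart held 359 FPKM. Tumour 6 was the highest for complement at 1.30, macrophage markers at 1.09 and fibroblast markers at 1.14. Tumour 1 was the highest for neutrophil markers at 2.13, where the other 5 tumour hearts had 1.03 to 1.63. In the 74 lists tumour 6 was the highest tumour heart in 42 and tumour 5 in 7. Tumour 6 was also high over genes at large. It had 13605 genes at 0.5 FPKM or more, against 12940 to 13315 in the other tumour hearts. Its median deviation was the highest of the tumour hearts in most length bins, with 0.15 in the bin of 3506 bases and 0.28 in the longest. The part of this shift in the count of lists was not tested.

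Genes that respond to glucocorticoids passed mostly as higher. Of 32 tested, 15 rose and 0 fell with 11 libraries (median 0.66), and 11 rose and 1 fell without control 1 and control 4 (median 0.39). Map3k6, a stress kinase induced by these hormones, had 7.55 to 15.2 FPKM (median 10.99) in tumour hearts and 2.23, 4.33, 2.65, 0.929 and 2.17 FPKM in control hearts. The groups did not overlap, and the rise was 1.86 ± 0.23 (adjusted p = 0.0005). Mt1, a metallothionein, had 285 to 443 FPKM (median 325) in tumour hearts and 174, 85.5, 91.02, 137 and 140.3 FPKM in control hearts (1.46 ± 0.196), and metallothionein copies may share reads. Fkbp5, a co-chaperone of the receptor, rose by 1.43, and Hsd11b1, which regenerates the active hormone inside cells, by 1.23, both in both fits. Klf15, a mediator of muscle catabolism, rose by 0.63. The motif printed for Serpina3n was also found before the starts of Mt1 and Map3k6, among 12 of the risen genes with a promoter in the table, and also before Sgk1 and Fam107a, which did not pass, so that 4 of the 26 tested members with a promoter held it. Per1, Tsc22d3, Sgk1 and Klf9, all textbook targets, did not pass.

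Muscle wasting genes gave a mixed picture. Of 35 tested genes of the FOXO and atrophy list 8 rose and 1 fell (median 0.33), and 5 rose and 0 fell without control 1 and control 4 (median 0.11). Fbxo31, a ubiquitin ligase subunit, had 38.1 to 53.1 FPKM (median 46.2) in tumour hearts and 17.4, 27.5, 27.2, 13.6 and 25.8 FPKM in control hearts and rose by 1.05 ± 0.18. Ctsl, a lysosomal protease, rose by 0.88 ± 0.18. The muscle ligases themselves did not pass: Fbxo32, atrogin-1, stood at 19.6 to 29.3 FPKM (median 21.2) in tumour hearts and 10.3, 20.1, 19.01, 5.17 and 11.2 FPKM in control hearts (0.84 ± 0.27, adjusted p = 0.0509), and without control 1 and control 4 its difference was 0.42. Trim63, MuRF1, stood at 0.15 ± 0.18 (adjusted p = 0.561). Of 43 autophagy and lysosome genes 8 rose and 0 fell with 11 libraries, and 5 rose without the pair, Ctsc and Lgmn among them. Over all tested genes 11.1% were higher with 11 libraries and 4.48% without the pair. In the first of these lists removing control 1 or tumour 4 alone left 4 higher genes and removing tumour 3 or tumour 6 left 5. In the second removing control 1 left 4 and removing tumour 3, tumour 4 or tumour 6 left 5.

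The PI3K-AKT pathway, which the series title names, gave 7 of 40 tested core genes higher and 0 lower (median 0.34), and 4 higher without control 1 and control 4 (median 0.11). Over all tested genes 11.1% were higher, and 4.48% without the pair. Of the 40, 2 reached the limit through tumour hearts alone, and of the other 38, 5 rose and 0 fell (median 0.33). Akt1 stood at 36.04 to 59.97 FPKM (median 47.2) in tumour hearts and 39.9, 45.7, 35.97, 36.4 and 51.9 FPKM in control hearts, a difference of 0.18 ± 0.16 that did not pass (adjusted p = 0.409). Pik3ca, the catalytic subunit p110 alpha, stood at 0.28 ± 0.198 with 11 libraries and -0.06 without the pair. The members that passed in both fits included Pik3ip1, a negative regulator of the kinase, at 0.68 ± 0.13, and the leukocyte-enriched Pik3cg and Pik3ap1 at 0.45 ± 0.08 and 0.695 ± 0.15. The count was 3 without control 1 or tumour 4, 4 without control 5, tumour 3 or tumour 6, 14 without control 3 and 17 without control 2. Beside it, leukocyte markers rose as given above, and their part in it was not tested.

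Genes that promote apoptosis gave 8 of 29 higher and 1 lower with 11 libraries (median 0.05), and 4 higher without control 1 and control 4 (median -0.03). Fas, the death receptor, had 9.68 to 12.5 FPKM (median 10.99) in tumour hearts and 7.71, 5.84, 5.77, 5.87 and 7.74 FPKM in control hearts and rose by 0.66 ± 0.12. Bmf, a BH3-only protein, rose by 0.61 ± 0.11, and Casp12 by 0.75 ± 0.14. Bax stood at 6.53 to 10.2 FPKM (median 7.63) in tumour hearts and 12.9, 6.87, 7.95, 14.3 and 14.7 FPKM in control hearts (-0.41 ± 0.204, adjusted p = 0.166), and Bcl2 differed by 0.26 ± 0.16; neither passed. Among genes that restrain apoptosis 4 of 17 rose and 0 fell, Birc2 and Birc3 among them, and 2 rose without the pair, where Birc2 did not pass.

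Fibroblast genes rose in part. Of 16 markers 8 rose and 2 fell (median 0.82), and 5 rose and 1 fell without control 1 and control 4 (median 0.37). Without tumour 4 the count was 4. The summed level of the 16 was 1287 to 2145 FPKM in tumour hearts and 669 to 1228 FPKM in control hearts. Their mean level relative to the control mean, which weighs each gene alike, overlapped between the groups. It was 0.23 to 1.14 in tumour hearts and -0.56 to 0.47 in control hearts. Dcn, decorin, had 193 to 350.3 FPKM (median 319) in tumour hearts and 161, 130.2, 125, 145 and 148 FPKM in control hearts, with no overlap, and rose by 1.04 ± 0.17. Pdgfra, the PDGF receptor alpha, rose by 1.38 ± 0.26. Of 25 tested secreted products of these cells 11 rose and 1 fell (median 0.56), and 9 rose and 1 fell without the pair (median 0.52). Srpx, a sushi-repeat protein, had 21.2 to 58.8 FPKM (median 41.5) in tumour hearts and 2.45, 1.92, 1.49, 1.57 and 2.41 FPKM in control hearts, a rise of 3.699 ± 0.27 (adjusted p = 2.07e-05) that was the second greatest of the named genes. Apod, a lipid carrier, had 37.4 to 136 FPKM (median 68.8) in tumour hearts and 9.82, 4.59, 4.49, 8.04 and 10.02 FPKM in control hearts (3.198 ± 0.33). Prg4, lubricin, rose by 2.44 ± 0.32.

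Mmp3, stromelysin, had 14.3 to 37.7 FPKM (median 23.6) in tumour hearts and 2.26, 1.78, 1.85, 0.937 and 4.17 FPKM in control hearts, and rose by 3.04 ± 0.26 (adjusted p = 4.59e-05) with no overlap. Mmp19 rose by 1.74 ± 0.22 and Mmp2, gelatinase A, by 1.62, both in both fits. Of 31 tested proteases, inhibitors and lysyl oxidases 13 rose and 0 fell (median 0.51), against 6 higher and 2 lower without control 1 and control 4 (median 0.41). Removing control 1 alone left 6, removing tumour 3 or tumour 6 left 7, and removing control 4 left 8. Of the 31, 6 reached the limit through tumour hearts alone, and of the other 25, 10 rose and 0 fell (median 0.64). Of 25 tested collagens 2 rose and 0 fell (median 0.35), and 0 rose and 2 fell without the pair (median 0.01). The 2 that rose were Col6a5 and Col23a1, minor chains at 0.976 and 0.926 FPKM (tumour medians). Of the 20 collagens that reached the limit in both groups 0 rose and 0 fell with 11 libraries. Col1a1 stood between 18.2 and 62.8 FPKM in tumour hearts and between 2.94 and 40.5 FPKM in control hearts, with control 4 and control 1 the lowest. Postn, periostin, which marks activated fibroblasts, fell by 0.86, and by 1.14 without the pair.

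The mean level of the IGF axis list, relative to its control mean, kept the groups apart only by a narrow margin. It was 0.431 or more in tumour hearts and 0.427 or less in control hearts. Of 20 tested 6 rose and 1 fell (median 0.37), and 4 rose and 1 fell without control 1 and control 4 (median 0.08). With control 1 alone removed, 3 rose. H19, the imprinted long RNA next to Igf2, had 3.21 to 34.2 FPKM (median 21.7) in tumour hearts and 1.31, 1.96, 1.17, 1.298 and 1.76 FPKM in control hearts. Tumour 5 was the lowest of the tumour hearts, still above every control heart, and the rise was 2.87 ± 0.45 (adjusted p = 0.00216). Igfbp4, which binds IGF, had 53.4 to 121 FPKM (median 75.4) in tumour hearts and 21.6, 25.9, 17.3, 13.2 and 33.9 FPKM in control hearts (1.79 ± 0.27). Igf1 rose by 1.24 ± 0.197, and Igfbp6 fell by 1.35. Tgfbr2, the type II TGF-beta receptor, had 15.6 to 36.5 FPKM (median 19.7) in tumour hearts and 4.52, 9.81, 8.34, 2.55 and 7.56 FPKM in control hearts, a rise of 1.69 ± 0.305. In the TGF-beta and BMP list 4 of 32 rose and 0 fell, near the 11.1% of all tested genes that were higher. Without control 1 and control 4, 2 of 34 rose, near the share of 4.48% of all tested genes. The count in this list was 1 with control 1 alone removed, 2 with tumour 3, tumour 4 or tumour 6 removed, and 12 with control 2 removed.

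Acta1, the skeletal muscle actin that the heart also makes, had 119 to 846 FPKM (median 266) in tumour hearts, against 2292, 2799.9, 1847, 1858 and 3134 FPKM in control hearts. The highest tumour heart, tumour 5, was below the lowest control heart, and the change was -3.07 ± 0.395 (adjusted p = 0.000724; -3.18 without control 1 and control 4). Acta2, smooth muscle actin, had 24.6 to 55.1 FPKM (median 37.99) in tumour hearts and 206, 137, 166, 153 and 320.5 FPKM in control hearts. It fell without overlap, a change of -2.31 ± 0.25 (adjusted p = 0.000222). Actc1, the main cardiac actin, had 1177 to 1682 FPKM (median 1399.5) in tumour hearts and 2572, 2568, 2728, 2511 and 3627 FPKM in control hearts and changed by -0.996 ± 0.15 (adjusted p = 0.00187), a call lost under quantile normalization. The 3 actins are near-identical in their coding sequence and may share reads. Of 15 tested markers of smooth muscle and pericytes 3 fell, Acta2, Higd1b and Vtn, and 0 rose (median -0.03), and 4 fell without the pair (median -0.15), and the summed level of the 16 measured was 932 to 1099.7 FPKM in tumour hearts and 758 to 1438 FPKM in control hearts.

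The wider SRF list gave 8 of 30 lower and 2 higher (median -0.25), and 7 lower and 0 higher without control 1 and control 4 (median -0.48). Both fits called 4 of the list lower. The upstream bases of Acta1 are shown because its fall with 11 libraries was the greatest of all named genes. They lie at chr8:123894776-123895025 on the minus strand (RefSeq, GRCm38.p6, 5′ to 3′), and capitals mark a CArG box, searched by its usual pattern on both strands.
Acta1: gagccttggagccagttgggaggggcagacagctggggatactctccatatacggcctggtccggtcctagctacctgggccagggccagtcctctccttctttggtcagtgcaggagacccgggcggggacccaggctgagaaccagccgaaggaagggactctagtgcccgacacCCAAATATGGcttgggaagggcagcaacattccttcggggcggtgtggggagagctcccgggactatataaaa
A CArG box was found in these 250 bases in 1.62% of all genes of the promoter table. Of the 25 tested members with a promoter 9 held it, 4 of the 7 lower ones (Acta1, Actc1, Cnn2 and Fhl2) and also Srf, Actg1, Myl9 and Vcl, which did not pass with 11 libraries, and Fhl1, which rose by 0.48 with 11 libraries. Without control 1 and control 4 neither Cnn2 nor Fhl1 passed.

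Sarcomere genes beyond the actins moved in both directions. Of 41 tested 8 fell and 2 rose (median -0.03), and 6 fell and 1 rose without control 1 and control 4 (median -0.11). Both fits called 4 of them lower and 1 higher. Removing control 1, control 4, control 5, tumour 3, tumour 4 or tumour 6 alone left 5 lower. Myl1, an alkali light chain of fast skeletal muscle, had 16.1 to 30.3 FPKM (median 18.6) in tumour hearts and 91.3, 35.5, 38.5, 106 and 61.3 FPKM in control hearts and changed by -1.54 ± 0.29 (adjusted p = 0.00547), or -1.08 without the pair. Myh7, the slow myosin heavy chain, had 81.02 to 359 FPKM (median 136) in tumour hearts and 22.7, 57.5, 52.4, 12.8 and 55.9 FPKM in control hearts. All 6 tumour hearts were above all 5 control hearts and the rise was 2.06 ± 0.46 (adjusted p = 0.0128), but without control 1 and control 4, its lowest controls, it was 1.403 (adjusted p = 0.0537) and did not pass. The natriuretic peptides of the loaded heart did not pass: Nppa differed by -0.05 ± 0.43 and Nppb by -0.702 ± 0.34, with Nppb at 99.5 to 329 FPKM (median 175) in tumour hearts and 428, 164, 173, 402 and 363 FPKM in control hearts. Of 14 cardiomyocyte markers 5 fell and 0 rose (median -0.18), and 1 fell without the pair (median -0.16). Removing any single library other than control 2 or control 3 left 1 or 2 lower. The summed level of those 14 was 15742 to 19192 FPKM in tumour hearts and 18895 to 29862 FPKM in control hearts.

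A pair of calcium buffers and a pacemaker channel were lower in tumour hearts. Casq1, the calcium buffer of skeletal muscle, had 2.26 to 4.16 FPKM (median 2.99) in tumour hearts and 11.1, 13.8, 12.5, 7.54 and 27.4 FPKM in control hearts, and changed by -1.81 ± 0.25 (adjusted p = 0.00117) with no overlap. Casq2, the cardiac form, had 146 to 197 FPKM (median 168) in tumour hearts and 301, 289.6, 279, 299 and 326 FPKM in control hearts, and changed by -0.802 ± 0.12 (adjusted p = 0.00186). Both passed in every alternative tried. Of 30 tested calcium handling genes 3 fell and 0 rose (median 0.04), and 6 fell without control 1 and control 4 (median -0.16), with Jph2, which holds the calcium release units together, at -0.63 and -1.01. Removing control 4 alone also gave 6. Without control 2 the list gave 7 higher and 4 lower genes and without control 3 it gave 3 and 3. With median-of-ratios scaling 9 fell, and with the trend on exon length removed 10 did, with 0 higher in both. Atp2a2, the calcium pump, stood at 0.28 ± 0.26 and did not pass (adjusted p = 0.438). Hcn2, a pacemaker channel, had 5.36 to 9.15 FPKM (median 7.02) in tumour hearts and 9.396, 19.9, 15.9, 9.62 and 18.2 FPKM in control hearts and changed by -0.88 ± 0.203, while the potassium channel genes Kcne4 and Kcnj2 rose by 0.96 ± 0.15 and 1.01 ± 0.205.

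Apelin and its receptor fell together. Apln, a vasoactive peptide that raises contractility, had 0.193 to 0.591 FPKM (median 0.434) in tumour hearts and 4.48, 5.29, 5.34, 3.18 and 7.98 FPKM in control hearts. The highest tumour heart was far below the lowest control heart, and the change was -2.103 ± 0.17 (adjusted p = 3.91e-05; -2.33 without control 1 and control 4). Aplnr, its receptor, had 2.19 to 5.37 FPKM (median 3.46) in tumour hearts and 6.87, 12.1, 8.85, 5.56 and 19.2 FPKM in control hearts and changed by -1.25 ± 0.28 (adjusted p = 0.0133). Apln is also a marker of sprouting endothelial tips, and the tip genes Esm1 and Angpt2 were lower too. Esm1 had 0.158 to 0.482 FPKM (median 0.289) in tumour hearts and 1.07, 1.28, 1.28, 1.01 and 1.84 FPKM in control hearts (-0.82 ± 0.11, adjusted p = 0.00095). Angpt2 changed by -0.52, and Hey1, which is not counted as a tip gene here, by -0.79. Esm1 in every tumour heart, and Apln at its tumour median, stood below the limit of 0.5 FPKM. In the capillary and tip list of 18 tested genes 6 fell and 6 rose (median 0.19), and 6 fell and 4 rose without the pair (median -0.13). Removing tumour 3, tumour 4 or tumour 6 alone left 3 higher. Of the 18, 2 reached the limit through control hearts alone, and of the other 16, 4 fell and 6 rose with 11 libraries (median 0.315). Those that rose included Ly6a, Ly6c1, Pgf and Lyve1. General endothelial markers gave 1 of 20 higher and 0 lower in each fit, with summed levels of 690.3 to 888 FPKM in tumour hearts and 617 to 827 FPKM in control hearts.

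Of the other genes with great falls, Rtn4r, Nrep, Hacd1 and Sh3bgr stood in none of the lists. Rtn4r, the Nogo receptor, had 0.456 to 2.24 FPKM (median 1.49) in tumour hearts and 11.4, 12.97, 11.2, 7.99 and 13.7 FPKM in control hearts, and changed by -2.39 ± 0.195 (adjusted p = 4.39e-05) with no overlap. Nrep stood at 0.852 to 2.62 FPKM (median 1.96) in tumour hearts and 7.83, 7.698, 7.13, 7.11 and 10.96 FPKM in control hearts (-1.67 ± 0.17). Hacd1, which elongates very long fatty acids in muscle, had 7.42 to 13.6 FPKM (median 9.68) in tumour hearts and 39.4, 20.3, 20.3, 60.97 and 32.6 FPKM in control hearts (-1.58 ± 0.27), and its 2 highest controls were control 4 and control 1. Sh3bgr changed by -1.53 ± 0.21. Egln3, a prolyl hydroxylase of the hypoxia response, had 11.97 to 16.5 FPKM (median 13.5) in tumour hearts and 47.7, 39.6, 37.1, 38.9 and 51.7 FPKM in control hearts, with no overlap (-1.56 ± 0.13, adjusted p = 4.59e-05). Fgf16, a growth factor of heart muscle, changed by -1.39 ± 0.196.

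Chaperones were lower in tumour hearts in both fits. Of 37 tested heat shock proteins and co-chaperones 18 fell and 0 rose with 11 libraries (median -0.61), and 22 fell and 0 rose without control 1 and control 4 (median -0.67), 17 of them in both. It was the only list of 74 whose mean level was lower in every tumour heart than in every control heart, at -0.71 to -0.48 and -0.43 to 0.32 relative to the control mean. Hspb1, a small chaperone, had 122 to 186 FPKM (median 155) in tumour hearts and 336, 428, 344, 262 and 454 FPKM in control hearts. All 6 tumour hearts were below all 5 control hearts and the change was -1.25 ± 0.17 (adjusted p = 0.000952), or -1.43 without the pair. Fkbp4, a co-chaperone of HSP90, had 52.2 to 85.8 FPKM (median 66.98) in tumour hearts and 145, 121, 113, 136 and 163 FPKM in control hearts (-0.99 ± 0.15, adjusted p = 0.00191). Hsph1, an exchange factor for HSP70, had 2.95 to 4.11 FPKM in tumour hearts and 4.39 to 19.5 FPKM in control hearts, and changed by -1.42.

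The inducible HSP70 genes showed how control hearts differed among themselves. Hspa1a stood between 0.366 and 1.03 FPKM in tumour hearts and at 1.45, 57.4, 18.6, 0.244 and 1.66 FPKM in control 1 to 5. The twin gene Hspa1b stood between 0.426 and 1.53 FPKM in tumour hearts and at 2.99, 84.6, 24.5, 0.559 and 2.8003 FPKM in control hearts, and reads may be shared between the copies. Control 2 and control 3 were high for both genes. Control 4 was below every tumour heart for Hspa1a and within the tumour range for Hspa1b. The changes of -1.89 and -2.18 did not pass with 11 libraries but did without control 1 and control 4, at -3.11 and -3.39. Dnajb1, a co-chaperone of HSP70, had 4.198 to 6.91 FPKM (median 4.88) in tumour hearts and 12.8, 62.9, 18.5, 7.67 and 11.7 FPKM in control hearts, with control 2 far above the rest (-1.55 ± 0.39, adjusted p = 0.0212). Control 2 was also the highest for immediate early genes, where Fos reached 3.02 FPKM in tumour hearts and 61.1 FPKM in control 2, and Egr1 7.73 FPKM in tumour hearts and 116 FPKM in control 2. These 27 tested genes gave 0 higher and 0 lower with 11 libraries and 0 higher and 4 lower without control 1 and control 4 or without control 4 alone. Without control 2, 22 of them reached the limit, 5 rose and 0 fell, with a median of 0.23 against -0.15 with 11 libraries. Without control 2 the heat shock list still gave 18 lower and 0 higher genes (median -0.54).

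Heat shock elements, spelled GAANNTTC or TTCNNGAA and searched on both strands, were found in 12 of the 29 tested chaperone genes with a promoter in the table, in 9 of the 16 lower ones, and in 14.55% of all genes there and 11.99% of the tested ones. Hspb1 and Hsph1 are shown as lower members with matches, in capitals. Hspb1 lies at chr5:135887669-135887918 on the plus strand and Hsph1, the first of its 2 listed starts, at chr5:149636337-149636586 on the minus strand (RefSeq, GRCm38.p6, 5′ to 3′).
Hspb1: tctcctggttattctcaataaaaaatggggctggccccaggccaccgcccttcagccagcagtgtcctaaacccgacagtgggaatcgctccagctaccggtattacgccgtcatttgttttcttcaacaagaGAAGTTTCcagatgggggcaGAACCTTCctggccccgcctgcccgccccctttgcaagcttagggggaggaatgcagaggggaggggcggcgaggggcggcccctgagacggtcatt
Hsph1: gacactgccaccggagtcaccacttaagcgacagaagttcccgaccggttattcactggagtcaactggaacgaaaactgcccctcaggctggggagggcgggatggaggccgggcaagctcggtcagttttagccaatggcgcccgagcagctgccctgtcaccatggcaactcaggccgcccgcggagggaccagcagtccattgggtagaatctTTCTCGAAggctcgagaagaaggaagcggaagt
Hspb1 held 2 matches and Hsph1 held 1. A match is a description of the letters and not a measured binding site, for this motif and for the others above.

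Tfrc, the transferrin receptor, had 2.23 to 6.18 FPKM (median 3.93) in tumour hearts and 10.1, 12.5, 11.6, 12.1 and 16.7 FPKM in control hearts. The groups did not overlap, and the change was -1.43 ± 0.19 (adjusted p = 0.000952), or -1.53 without control 1 and control 4. Alas1, the rate-limiting enzyme of haem synthesis outside erythroid cells, had 8.98 to 13.96 FPKM (median 11.3) in tumour hearts and 20.3, 28.01, 21.9, 20.02 and 31.3 FPKM in control hearts and changed by -1.03 ± 0.16 (adjusted p = 0.00179). Hmox1, which breaks haem down, had 9.51 to 18.01 FPKM (median 15.2) in tumour hearts and 7.67, 7.29, 5.33, 4.78 and 6.72 FPKM in control hearts, a rise of 1.09 ± 0.17 (adjusted p = 0.00191). Trf, transferrin, rose by 1.21 and Cp, the ferroxidase ceruloplasmin, by 1.21. In all 6 of 26 tested genes of iron and haem rose and 2 fell (median 0.23), and 5 and 2 did without the pair (median 0.12).

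Ucp3, a mitochondrial carrier that follows fatty acid supply, had 2.72 to 9.67 FPKM (median 8.802) in tumour hearts and 13.9, 26.3, 32.2, 16.5 and 19.4 FPKM in control hearts, and changed by -1.52 ± 0.31 (adjusted p = 0.00851) with no overlap. Txnip, which limits glucose uptake, had 178 to 269 FPKM (median 232) in tumour hearts and 134, 98.3, 141, 65.7 and 104 FPKM in control hearts and rose by 1.11 ± 0.199. Of 40 tested PPAR-alpha and fasting genes 6 rose and 3 fell, and 2 and 2 did without control 1 and control 4. Over all tested genes 11.1% were higher and 4.51% lower, and 4.48% and 3.56% without the pair. In the list removing control 1 alone left 1 and 1, and with median-of-ratios scaling or with the trend on exon length removed 5 rose and 10 fell. Pdk4, which shuts off pyruvate oxidation, stood at 62.5 to 330.3 FPKM (median 144) in tumour hearts and 121, 327, 575, 78.7 and 164 FPKM in control hearts and did not pass (adjusted p = 0.427). Bdh1, which oxidises ketone bodies, changed by -0.58 ± 0.13, and Pfkfb3, an activator of glycolysis, rose by 1.05 ± 0.16.

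The nuclear genes of the respiratory chain gave a result that did not hold without control 1 and control 4. Complex I gave 5 of 36 tested genes lower with 11 libraries (median -0.71) and 0 without the pair (median -0.25). Complexes II to IV gave 5 of 30 (median -0.61) and 0 (median -0.14), and the ATP synthase 2 of 17 (median -0.60) and 0 (median -0.10). The ATP synthase count was 11 without control 2, 5 without control 3, 1 without tumour 1 and 0 without control 1, control 4, control 5, tumour 2, tumour 3, tumour 4 or tumour 6. Ndufs8, a complex I subunit, had 103 to 139.6 FPKM (median 128) in tumour hearts and 278, 149, 147, 361 and 238 FPKM in control hearts, with control 4 and control 1 the highest and control 2 and 3 close to the tumour range. Its change was -0.84 ± 0.23 (adjusted p = 0.0274) and -0.49 without the pair (adjusted p = 0.111). Mean deviations of the complex I list were -0.97 to -0.51 in tumour hearts, and 0.55, -0.74, -0.73, 0.88 and 0.04 in control 1 to 5. Removing control 2 alone gave 28 lower complex I genes and removing control 3 gave 24, whereas removing control 1, control 5, tumour 3, tumour 4 or tumour 6 gave 0, and removing control 4 or tumour 2 gave 1. For complexes II to IV removing control 1, tumour 3 or tumour 4 gave 0, control 2 gave 19 and control 3 gave 14. With the trend on exon length removed complex I gave 11 lower (median -0.66), complexes II to IV 5 (median -0.53), the ATP synthase 3 (median -0.59) and the mitochondrial ribosome 34 (median -0.58). Genes of the mitochondrial ribosome gave 20 of 77 lower (median -0.50) and 3 without the pair (median -0.27), Mrpl19, Mrpl34 and Mrpl4, with counts of 56 without control 2, 47 without control 3, 4 without control 1, 11 without tumour 3 or tumour 4 and 12 without tumour 6.

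Of 27 tested genes of the cell cycle list 5 fell and 1 rose (median -0.01), and without control 1 and control 4, where 29 were tested, 5 fell and 1 rose (median -0.24). Both fits called 4 of the list lower and 1 higher. Under quantile normalization, or with the trend on exon length removed, 9 fell, and median-of-ratios scaling gave 8. Ccnb2, a mitotic cyclin, had 0 to 0.199 FPKM (median 0.0518) in tumour hearts and 0.8999, 0.699, 0.501, 0.551 and 1.48 FPKM in control hearts, with no overlap. Ccnb2 and 4 other members, Mki67 and Top2a among them, reached the limit through control hearts alone, and of the 22 that reached it in both groups 1 rose and 1 fell. The one that fell was Ccnd1, cyclin D1, at -0.73. In the whole list removing control 1 or tumour 3 alone left 1 lower gene, and removing control 5, tumour 1, tumour 2, tumour 4 or tumour 5 left 2. Myc, in contrast, had 2.15 to 3.95 FPKM (median 2.79) in tumour hearts and 0.232, 0.6397, 0.682, 0.399 and 0.759 FPKM in control hearts and rose by 1.33 ± 0.14 (adjusted p = 0.000169), while Mycn changed by -0.86 ± 0.18. Circadian clock genes gave 5 of 19 higher and 0 lower with 11 libraries (median 0.52) and 0 called in either direction without control 1 and control 4 (median 0.24), and the count was also 0 without control 1, control 4, tumour 3, tumour 4 or tumour 5 alone.

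**Figure D4:**
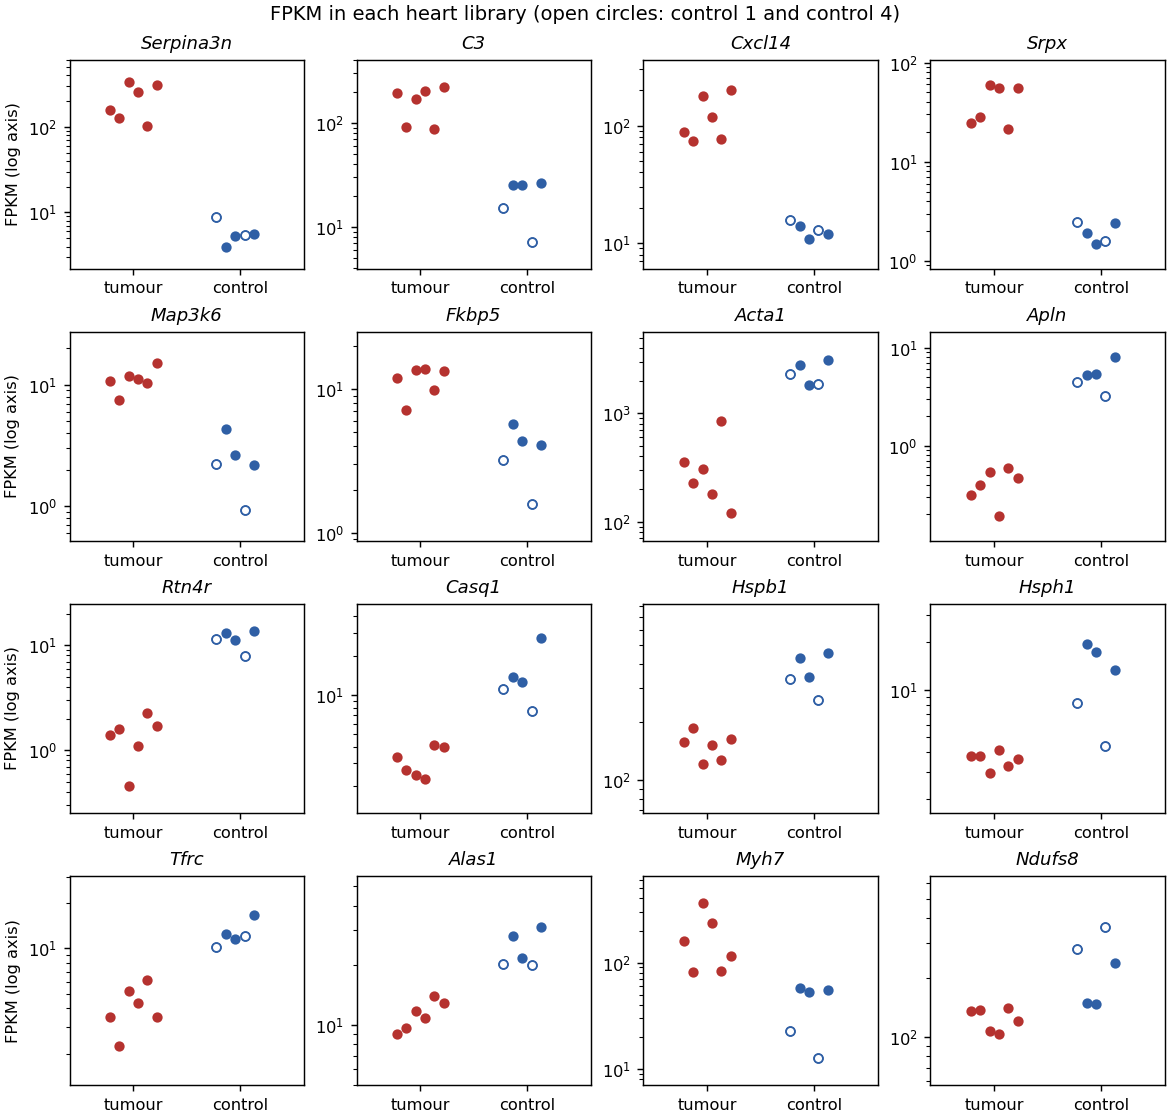
FPKM of 16 genes in each library (vertical log axis, 1 point per library), tumour hearts in red at the left of each panel and control hearts in blue at the right, with control 1 and control 4 as open circles. The groups do not overlap in any of the 16 panels, and control 1 and control 4 are the lowest control hearts for Myh7 and the highest for Ndufs8.

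Across the lists, those whose mean level did not overlap between the groups were 11 with every tumour heart above and 1 with every tumour heart below. The 11 were secreted acute phase proteins, complement, IL-1, IL-33 and TNF ligands and receptors, chemokines, FOXO and atrophy genes, iron and haem, the IGF axis, matrix proteases, fibroblast products, neutrophil markers and erythroid markers. Some margins were narrow. The lowest tumour and highest control heart stood at 0.431 and 0.427 for the IGF axis and at 0.2309 and 0.2307 for iron and haem. They stood at 0.253 and 0.207 for FOXO and atrophy genes. Whether the lists stay apart under other scalings was not tested. Of single genes tested, 7.64% had every tumour heart above and 2.84% every tumour heart below. The direction of a list's median was the same under 7 settings of libraries and scaling for 30 lists that were above 0 and 13 that were below 0, and it changed sign for the other 31. Sarcomere genes, calcium handling, collagens, cell cycle, cytosolic ribosomal proteins, cardiomyocyte markers, smooth muscle markers, capillary and tip cell genes, interferon-stimulated genes and genes that promote apoptosis were among these 31.

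**Figure D5:**
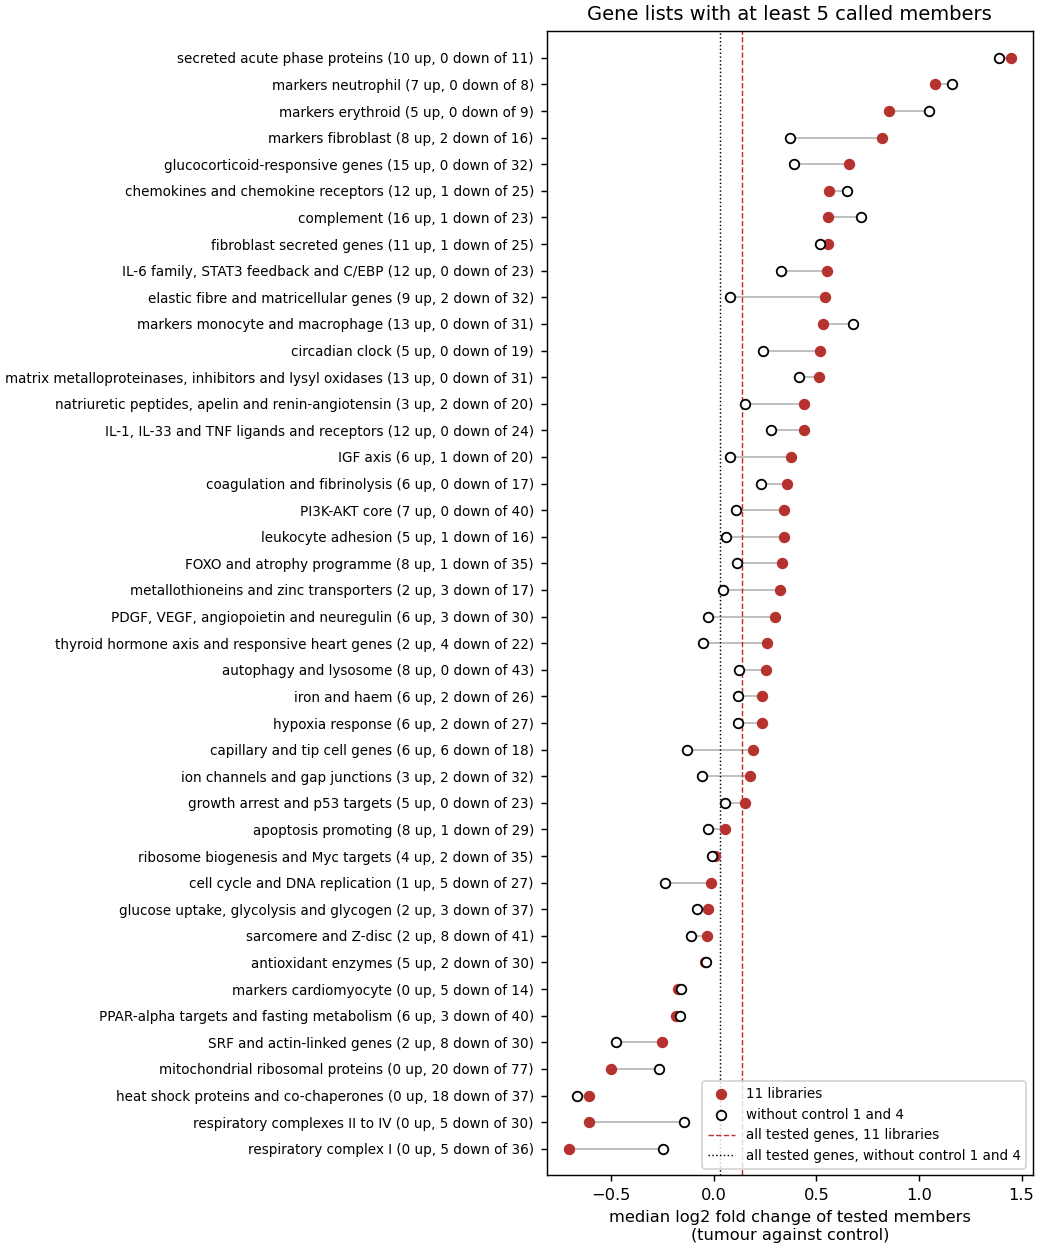
Median log2 fold change of the tested members of each list with at least 5 called members, tumour against control, with 11 libraries (red) and without control 1 and control 4 (open circles); lines mark the medians of all tested genes, 0.14 and 0.03. Acute phase genes stay at 1.45 and 1.39 and heat shock genes at -0.61 and -0.67, while complex I moves to -0.25 without the pair, against -0.71 with it.

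The genes named here included those with the 12 greatest rises and the 12 greatest falls among genes without overlap between groups, and all of these but Dnajb1 passed in every alternative setting. Of 163 named genes that passed with 11 libraries, 77 passed in every alternative and 92 in every one but the replicate block, and 45 did not pass without control 1 and control 4. No named gene that passed changed its direction in any of them.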

How the data were processed

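Total RNA of mouse hearts was sequenced, and the authors deposited 1 table of 28640 genes with a value for each of 17 libraries. No label or header states the unit: the deposited values were taken as FPKM because they behave as reads scaled by gene length and library total. Per the submitters' processing notes, fastp, FastQC and bcl2fastq were used, and the genome was mm10. Not given in the sources used here are the aligner, the counting method and its use of strand. Gene positions and exon lengths were matched by identifier to GENCODE M21 (28268 genes), and promoters come from RefSeq.

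The 6 tumour and 5 control libraries were fitted with limma 3.58.1 in R 4.3.3 on log2(FPKM + 1), for genes whose mean reached 0.5 FPKM in either group, with Benjamini-Hochberg adjustment over all tested genes. The procedure was tested on simulated data. Motifs were searched in the 250 bases before each start.

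The genes named are the 12 greatest rises and 12 greatest falls among genes that passed without overlap and had a mean of at least 1 FPKM, up to 3 members a list by smallest p, whole lists of 6 or fewer measured genes, and 15 genes of cardiac or study interest. Results for a few list members are not reported here. Further members of the lists were named after their values were seen. The lists and members were chosen with earlier results of these data known. Alternatives were the scaling, the limit, the pseudocount, the threshold, all 17 libraries, a replicate block, and leaving out libraries. Depth is the reads recovered from the steps of the values and limits low genes most.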

Additional observations from a re-analysis of the deposited data

Results flagged for a closer look

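A library lay far from the rest of its group, by the gap to its nearest neighbour as a share of the group's range, in 20 of 388 groups of values looked at, where chance gives about 1 in 20. Tumour 5 was the one apart in 5 of them. It was the highest tumour heart for Acta1 at 846 FPKM (next 359), Uqcrc1, a complex III subunit, at 287 FPKM (next 232), Alas2 at 57.4 FPKM (next 30.3), Fbxo32 at 29.3 FPKM (next 22.9) and the share of reads on haemoglobin genes at 0.507% (next 0.303%).

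Tumour 1 stood apart in 4, as the highest tumour heart for Mt1 at 443 FPKM (next 338), Ppp1r1a at 0.844 FPKM (next 0.475), Col6a5 at 3.28 FPKM (next 1.09) and Il1b at 1.47 FPKM (next 0.841). Tumour 3 was the highest for Birc3 at 4.50 FPKM (next 3.33), tumour 4 for Cdh19, a Schwann cell cadherin, at 8.45 FPKM (next 4.61) and tumour 6 for Mcpt4, a mast cell protease, at 2.20 FPKM (next 1.04).

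Among control hearts, control 5 was the highest for Nrep at 10.96 FPKM (next 7.83), Actc1 at 3627 FPKM (next 2728) and Vtn at 20.7 FPKM (next 13.01). Control 4 was the highest for S100a9 at 1.96 FPKM (next 0.892) and the lowest for Vcam1 at 1.32 FPKM (next 1.88). Control 2 was the highest for Dnajb1 at 62.9 FPKM (next 18.5) and for Il1b at 3.47 FPKM (next 0.722). Control 1 was the highest for Ear2, an eosinophil ribonuclease, at 0.399 FPKM (next 0.0838).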

How the results depend on the processing

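The 1510 higher genes became 611 without control 1 and control 4, 713 with all 17 libraries in the fit, 966 with no expression limit, 289 with the replicate block and 371 at an adjusted p under 0.01. They were 679 without control 1 and control 4 with median-of-ratios scaling, a setting chosen after seeing the data. The 614 lower genes became 1284 with median-of-ratios scaling, 1144 with quantile normalization, 359 with equal totals without mitochondrially encoded genes, 1331 with the length trend removed, 195 with the replicate block and 158 at an adjusted p under 0.01. Leaving out 1 library at a time gave 660 to 2578 higher and 289 to 1073 lower genes. The cause was not tested. Same-numbered libraries had correlations of deviations of 0.356, -0.359, 0.309, -0.2 and -0.0914, and 1 of 5 tumour libraries correlated best with the control of its own number. The best match was control 3 or control 4 in every case, with length correlations of 0.58 and -0.57. The labels do not say whether same-numbered libraries were handled together, as the replicate block assumes, and this was not tested. Of 163 named genes that passed, 76 did not pass with that block. Low values limit genes near 0.5 FPKM, where the recovered reads are few.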
